A study of Mus musculus with 167 samples.

Results

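The cells described are single lymphoid-primed multipotent progenitors (LMPPs) of mouse bone marrow in which the transcript of Mpo was abundant, set against LMPPs in which it was undetected. Cells were chosen by their measured Mpo level alone. Of 168 deposited single-cell columns, 130 had 1000 or more genes at 1 or more TPM, the authors' transcript abundance scaled to a fixed total per cell, and were kept. Among these, 46 cells had Mpo at 100 TPM or more (Mpo-high) and 54 had it under 1 TPM (Mpo-negative). The remaining 30 cells lay between. Because Mpo was selected on, it is left out of every result, and the other differences between the groups describe these cells and were not tested.

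The cells came from female C57Bl/6J mice aged 14 months and 4 months. They were sorted as Lin- Sca1+ cKit+ cells that lack CD150, carry CD34 and are Flk2hi, a gate that keeps early progenitors and removes mature blood cells. Single cells were captured on a Fluidigm C1 chip. The Mpo-high group held 21 cells of 14 months and 25 of 4 months, and the Mpo-negative group held 25 of 14 months and 29 of 4 months. The labels give no animals, so whether the cells of an age share a mouse is not given. Each age therefore counts as 1 sample, and cells are not replicates. The 14-month columns carry a set number, 4 or 5, of unstated meaning. Set 4 held 8 Mpo-high and 13 Mpo-negative cells, and set 5 held 13 Mpo-high and 12 Mpo-negative cells.

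Mpo encodes myeloperoxidase, an enzyme that granulocyte and monocyte precursors pack into azurophil granules, the first granules to form in these lineages, together with the serine proteases proteinase 3 (Prtn3), neutrophil elastase (Elane) and cathepsin G (Ctsg). These genes are switched on early in myeloid differentiation, before the genes of later granules and of mature phagocytes. LMPPs lie upstream of that step. They can still form lymphoid as well as granulocyte-monocyte cells, and single LMPPs are known to carry low levels of transcripts of both lineages.

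The start regions of the granule genes Prtn3, Elane and Ctsg and of Clec12a are shown first because the results on the granule list turn on these genes. Prtn3 and Elane are neighbours on chromosome 10 and Ctsg lies on chromosome 14. Each window runs from 250 bases before to 50 bases after the RefSeq start of the gene on build GRCm38.p6, written 5′ to 3′ on the gene's own strand, and the sequences are RefSeq's. The gene spans given further on are those of the GENCODE annotation, which begin upstream of the RefSeq start for Prtn3, Elane and Clec12a. Capitals mark exact matches, on either strand, to GGAAGT (the core of sites for PU.1), AACGG (the core of sites for Myb), TGTGGT or its reverse complement ACCACA (the core of sites for Runx factors) and TTGCNNAA (a C/EBP site). No match overlapped another motif in these windows.
Prtn3, chr10:79879417-79879716, plus strand: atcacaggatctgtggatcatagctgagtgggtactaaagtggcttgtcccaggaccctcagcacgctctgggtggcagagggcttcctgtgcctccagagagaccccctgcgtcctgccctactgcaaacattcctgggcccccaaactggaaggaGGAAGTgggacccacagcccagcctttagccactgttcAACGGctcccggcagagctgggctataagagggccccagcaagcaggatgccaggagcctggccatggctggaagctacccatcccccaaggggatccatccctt
Elane, chr10:79886062-79886361, plus strand: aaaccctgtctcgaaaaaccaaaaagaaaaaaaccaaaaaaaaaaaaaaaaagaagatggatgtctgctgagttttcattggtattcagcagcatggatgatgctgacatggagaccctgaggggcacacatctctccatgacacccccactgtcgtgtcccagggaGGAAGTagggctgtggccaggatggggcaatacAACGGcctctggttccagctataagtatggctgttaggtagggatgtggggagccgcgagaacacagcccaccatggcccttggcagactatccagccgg
Ctsg, chr14:56102525-56102824, minus strand: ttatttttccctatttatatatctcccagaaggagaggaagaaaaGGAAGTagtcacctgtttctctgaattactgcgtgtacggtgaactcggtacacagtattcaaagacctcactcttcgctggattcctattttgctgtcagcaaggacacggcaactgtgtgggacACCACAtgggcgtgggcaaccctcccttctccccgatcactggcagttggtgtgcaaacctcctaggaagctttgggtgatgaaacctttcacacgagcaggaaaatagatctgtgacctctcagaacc
Clec12a, chr6:129349994-129350293, plus strand: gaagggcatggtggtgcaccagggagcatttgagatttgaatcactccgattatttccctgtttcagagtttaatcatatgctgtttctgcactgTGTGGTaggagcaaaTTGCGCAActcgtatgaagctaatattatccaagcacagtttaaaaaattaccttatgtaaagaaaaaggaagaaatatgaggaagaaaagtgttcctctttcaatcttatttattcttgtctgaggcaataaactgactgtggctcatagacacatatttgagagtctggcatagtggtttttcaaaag
Prtn3 held GGAAGT from -93 and AACGG from -55, and Elane held the same pair in the same order, from -83 and -50, counted in bases from the start. Ctsg held GGAAGT from -205 and ACCACA from -79. Clec12a, which encodes an inhibitory lectin receptor of myeloid cells, held TGTGGT from -155 and TTGCGCAA from -140. Such matches are common. Of 32851 RefSeq promoter windows of this length, 23.8% held GGAAGT, 17.4% AACGG, 16.8% TGTGGT and 10.8% TTGCNNAA, counting both strands. The matches describe the letters only.

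Mpo-high cells had more genes detected (TPM 1 or more) and a smaller share of mitochondrial transcripts than Mpo-negative cells. The lowest, median and highest numbers of genes were 1041, 4059 and 6848 in Mpo-high cells, against 1021, 3197.5 and 6276 in Mpo-negative cells. At 14 months the medians were 3967 in Mpo-high and 2631 in Mpo-negative cells, and at 4 months they were 4448 in Mpo-high and 3494 in Mpo-negative cells. The groups overlapped at both ages. The median mitochondrial share was 12.0% of TPM in Mpo-high and 20.2% in Mpo-negative cells, and 0 Mpo-high against 12 Mpo-negative cells reached 30%. The deposited TPM keep no sequencing depth. The part that detection and the mitochondrial share play in each result was not tested. Values are also given for 26 Mpo-high and 26 Mpo-negative cells paired within an age so that their numbers of detected genes differed by at most 10%. These matched cells had medians of 3818.5 genes in the Mpo-high and 3684 in the Mpo-negative group, while their median mitochondrial shares still differed, at 12.7% in the Mpo-high and 18.3% in the Mpo-negative group.

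**Figure D1:**
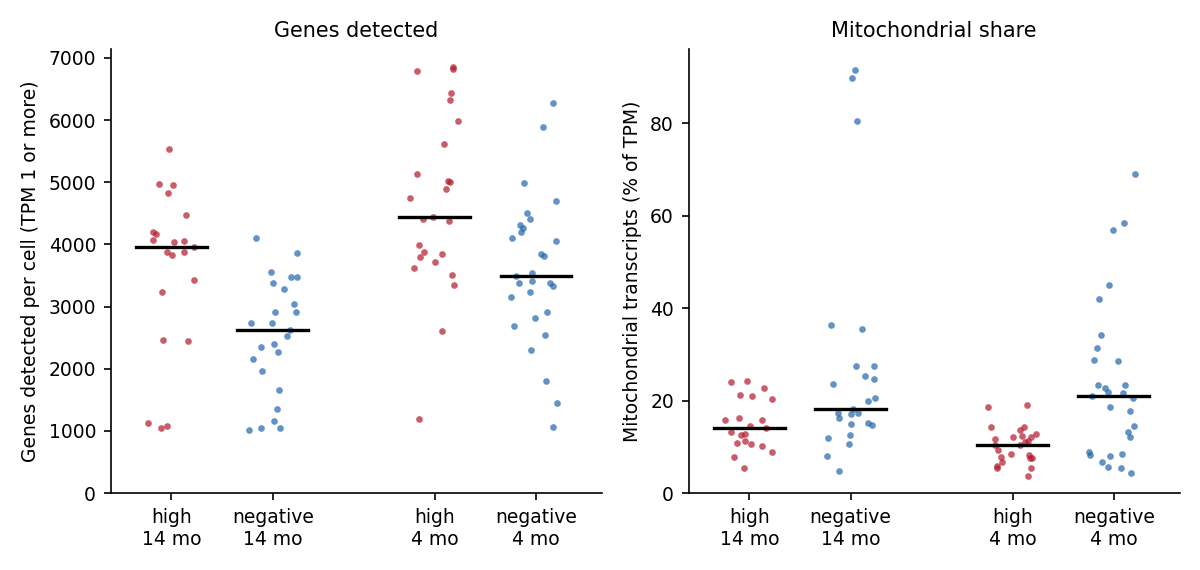
Genes detected per cell (left panel, number of genes at TPM 1 or more) and mitochondrial transcripts (right panel, % of TPM) for each Mpo-high (red) and Mpo-negative (blue) cell by age in months (mo). Black bars are medians. Mpo-high cells had the higher median number of genes at both ages, 3967 at 14 months and 4448 at 4 months, and none reached 30% mitochondrial.

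Over 50% of TPM from mitochondrial transcripts, or over 20% from 1 other gene, was seen in 1 Mpo-high and 7 Mpo-negative cells. A Mpo-high cell of 14 months had Rpl15-ps3 at 563275 TPM and a Mpo-negative cell of 14 months had Camp at 364930 TPM, so the fixed total lowers all other values there. These 2 genes were chosen after their values were seen. The 130 kept cells also included 5 pairs with a correlation of log2(TPM+1) across genes above 0.75, the highest at 0.97. Leaving out 4 cells, 2 of them Mpo-high and 0 Mpo-negative, broke every pair. At the Mpo thresholds themselves, the lowest Mpo-high cells had 118 and 124 TPM, and the nearest cells below that threshold had 94.9 and 86.2 TPM. At the other threshold, the highest Mpo-negative cell had 0.71 TPM and the lowest cell between had 1.08 TPM. Mpo was listed at exactly 0 in 44 of the 54 Mpo-negative cells.

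Across the transcriptome, most genes had the higher mean in Mpo-high cells. For 9314 measured genes, those detected in at least 10% of the compared cells, the difference of mean log2(TPM+1), Mpo-high minus Mpo-negative, had a median of 0.49. It was 0.44 at 14 months, 0.52 at 4 months and 0.04 in the matched cells. All differences below are relative to the median of their own comparison, and on this scale they understate the change of low genes. A relative difference of 2 or more in size was counted as large. By this rule 187 genes (2.01%) were higher in Mpo-high cells and 13 (0.14%) lower, counts that the choice of cells on Mpo affects. At 14 months 403 genes (4.33%) were higher and 29 (0.311%) lower, and at 4 months 302 (3.24%) were higher and 53 (0.569%) lower. Of the 187 genes, 177 are protein-coding, 85 passed 2 in each age on its own, and 68 passed it in the matched cells. Without the 12 Mpo-negative cells at 30% mitochondrial or more, 120 genes were higher and 7 lower, and without the 4 cells of the correlated pairs 178 were higher and 13 lower. All 13 lower genes are unnamed or carry only predicted names, and 7 of them are small RNAs.

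The differences varied with how often a gene was detected. Genes found in 10 to 30% of the compared cells had a median relative difference of -0.22, and 0.0423% of them passed 2. Genes found in 50 to 70% of cells had a median of 0.60 and genes found in 70 to 90% had one of 0.67, with 7.87% and 7.83% past 2. In the matched cells these 3 medians were -0.05, 0.08 and 0.16. The lists below are read beside these values.

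The genes of the azurophil granule list other than Mpo were higher in Mpo-high cells as a group. This list also holds early myeloid genes such as Clec12a, a lectin receptor. Of 27 listed genes 23 were measured, and all 23 were above the median gene, with a median relative difference of 1.23 and 2 past 2 (Clec12a and Nkg7). The filter for measured genes took both groups together, so rare genes could pass it mainly through Mpo-high cells, which affects this count. Ctsg and Elane, for example, were detected in 3.70% and 5.56% of Mpo-negative cells. The 23 genes were detected in a median of 42% of the compared cells. The 2299 genes found in 30 to 50% of cells had a median of 0.23, with 62.9% above the median gene and 1.13% past 2. The list median was 1.38 at 14 months (1.52 in set 4, 1.35 in set 5), 0.95 at 4 months and 1.28 in the matched cells, where 21 of the 23 were above the median gene. It was 0.89 without the cells at 30% mitochondrial or more. A median of 14 list genes was detected per Mpo-high cell, against 8 per Mpo-negative cell.

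Prtn3 (ENSMUSG00000057729, chr10:79874476-79883174 in the mm10 annotation) ranged over 0, 249 and 2603 TPM (lowest, median and highest) in Mpo-high cells, and over 0, 45.9 and 1669.6 TPM in Mpo-negative cells. Both groups held cells at 0 and cells above 1000 TPM, and their ranges overlapped. The gene was detected in 91.3% of Mpo-high cells (exact 95% Clopper-Pearson interval for counting error, 79.2 to 97.6%) and in 66.7% of Mpo-negative cells (52.5 to 78.9%), so most cells without Mpo still carried proteinase 3 transcripts. Its mean log2(TPM+1) was 7.13 in Mpo-high cells (SD over cells 2.97, n = 46 cells) and 4.89 in Mpo-negative cells (SD 4.18, n = 54 cells), a relative difference of 1.74. The median TPM differed more at 14 months, 420.4 in Mpo-high and 6.07 in Mpo-negative cells, than at 4 months, 227 in Mpo-high and 132 in Mpo-negative cells. The relative differences were 3.16 at 14 months and 0.55 at 4 months, and the difference between the ages was not tested.

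Ctsg (chr14:56099881-56102574) was rarer. It was detected in 16 of 46 Mpo-high cells (34.8%, interval 21.4 to 50.2%) and in 2 of 54 Mpo-negative cells (3.70%, interval 0.452 to 12.7%). Its highest value was 3906 TPM in a Mpo-high cell and 113 TPM in a Mpo-negative cell, and the median was 0 in both groups. Its relative difference was 1.79, with 3.00 at 14 months, 0.80 at 4 months and 1.98 in the matched cells. Elane (chr10:79886247-79888215) was detected in 7 of 46 Mpo-high cells (15.2%) and 3 of 54 Mpo-negative cells (5.56%), at up to 13815.5 TPM in Mpo-high and 26.8 TPM in Mpo-negative cells. All but 1 of these Mpo-high cells were of 14 months. The relative difference of Elane was 0.21 over both ages, 1.38 at 14 months, -0.77 at 4 months, -0.15 in set 4 and 2.35 in set 5. It rests on 10 positive cells.

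Counting the 3 proteases per cell, 19 of 46 Mpo-high cells (41.3%, interval 27.0 to 56.8%) held at least 2, against 3 of 54 Mpo-negative cells (5.56%, interval 1.16 to 15.4%). None of the 3 was detected in 4 Mpo-high and in 16 Mpo-negative cells. All 3 occurred together in 4 Mpo-high cells and in 0 Mpo-negative cells, where a count of 0 allows a share of up to 5.56%. At 14 months 13 of 21 Mpo-high and 1 of 25 Mpo-negative cells held at least 2. At 4 months 6 of 25 Mpo-high and 2 of 29 Mpo-negative cells did.

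Among other granule and early myeloid genes, Clec12a, Nkg7 and Cst7 were detected more often in Mpo-high cells. Clec12a (chr6:129342691-129365303) ranged over 0, 47.9 and 789.7 TPM in Mpo-high cells and over 0, 0 and 509.8 TPM in Mpo-negative cells. It was detected in 71.7% of Mpo-high cells (interval 56.5 to 84.0%) and 16.7% of Mpo-negative cells (7.92 to 29.3%). Its relative difference of 3.25 was nearly the same at 14 months (3.29) and 4 months (3.24) and was 2.42 in the matched cells, with 1.90 in set 4 and 4.52 in set 5. Nkg7, a granule membrane protein best known from cytotoxic lymphocytes, had medians of 217 TPM in Mpo-high and 0 TPM in Mpo-negative cells and a relative difference of 2.89, with 4.04 at 14 months and 1.94 at 4 months. Cst7, which encodes cystatin F, an inhibitor of lysosomal proteases, was detected in 65.2% of Mpo-high and 25.9% of Mpo-negative cells, with a relative difference of 1.67 that was 0.63 in the matched cells. Ms4a3, a membrane protein of granulocyte-monocyte progenitors, was found in 6 of 46 Mpo-high cells and 0 of 54 Mpo-negative cells, a count that allows a share of up to 5.56%. At the lower end of the list, Ctsc, the protease that activates the granule serine proteases, was at 0.07. It kept this sign in 8 of 17 alternative ways of processing. It was at -0.05 after quantile normalization and at -1.02 in the lowest of these alternatives.

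**Figure D2:**
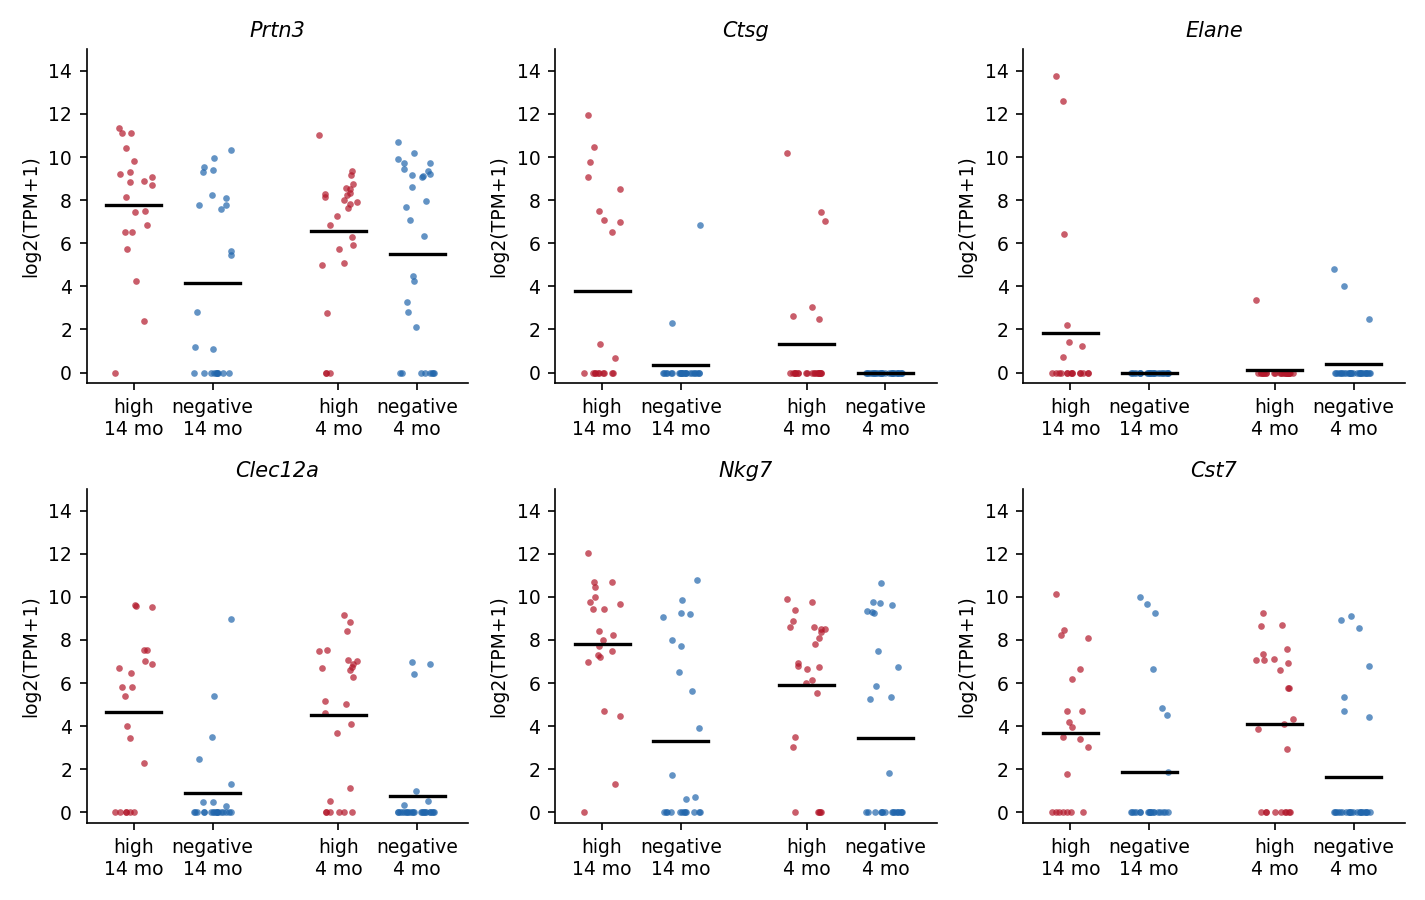
Level of 6 granule and early myeloid genes in single cells, log2(TPM+1) on the vertical axis, for Mpo-high (red) and Mpo-negative (blue) cells by age in months (mo). Each point is a cell and black bars are means. Prtn3 fills the whole range in both groups, whereas Ctsg was detected in 2 and Clec12a in 9 of the 54 Mpo-negative cells.

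Genes of later myeloid maturation were mostly undetected in both groups. Of 24 listed genes of late neutrophils and monocytes only 4 were measured, none past 2, with a median of -0.05 that changed sign in the matched cells (0.66). Ltf, Ngp, Ly6g, Lcn2, Cd177, Adgre1 and Ifitm6, genes of secondary granules and of mature neutrophils and macrophages, were listed at 0 in all 100 compared cells. The summed TPM of the list had a median of 47.1 in Mpo-high cells (range 0 to 1963) and 3.18 in Mpo-negative cells (range 0 to 364930, the top value being the Camp cell). Summed markers of other mature cells had low medians as well. The summed TPM of the mature B, T and NK cell list had a median of 18.6 in Mpo-high cells (range 0 to 709.7) and 0 in Mpo-negative cells (range 0 to 1378), and Cd79b, of the B cell receptor, was the 1 gene of 19 measured. At least 1 gene of this list was detected in 58.7% of Mpo-high and 25.9% of Mpo-negative cells. The dendritic cell list summed to a median of 81.2 TPM in Mpo-high cells (range 0 to 25689) and 19.7 TPM in Mpo-negative cells (range 0 to 15462). At least 1 gene of the dendritic cell list was detected in 82.6% of Mpo-high and 68.5% of Mpo-negative cells. The part of cells with such markers in the results was not tested. Pax5, Cd3e and Ncr1 were at 0 in all compared cells, as were 13 of 16 genes of basophils, eosinophils and mast cells. The sums of that basophil list reached 309 TPM in Mpo-high and 58.0 TPM in Mpo-negative cells.

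Among myeloid transcription factors, Irf8, which directs monocyte and dendritic cell fate, had the highest relative difference. It ranged over 0, 9.09 and 295 TPM in Mpo-high cells and over 0, 0 and 659 TPM in Mpo-negative cells, and the groups overlapped. It was detected in 58.7% of Mpo-high cells (interval 43.2 to 73.0%) and 20.4% of Mpo-negative cells (10.6 to 33.5%), and in 46.2% of matched Mpo-high and 19.2% of matched Mpo-negative cells. Its relative difference was 1.56, with 1.64 at 14 months and 1.42 in the matched cells. Irf8 and Prtn3 were detected together in 26 of 46 Mpo-high and 6 of 54 Mpo-negative cells. Zeb2, a repressor active in myeloid and dendritic cells, was at 1.03.

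The other regulators of the granulocyte programme lay near the median gene or below it. Of 17 measured factors 8 were above the median gene, 0 passed 2, and the median was -0.06. The factors were detected in a median of 42% of the compared cells. Among all genes found in 30 to 50% of cells, 62.9% were above the median gene and 1.13% passed 2, with a median of 0.23. Cebpa, the factor required for granulocyte-monocyte progenitors, was detected in 19.6% of Mpo-high and 18.5% of Mpo-negative cells, with a relative difference of -0.78. Gfi1, which acts in neutrophil precursors, was at -0.12 and was detected in 9.26% of Mpo-negative cells. It was found in 15.2% of cells with Mpo at 100 to 1000 TPM and in 30.8% at 1000 TPM or more, with overlapping intervals. Cebpe, a factor of later granules, was detected in 1 of 46 Mpo-high and 0 of 54 Mpo-negative cells. Of 11 measured myeloid cytokine receptors 4 were above the median gene, and their median was -0.14. It changed sign at 14 months (0.19) and in the matched cells (0.13), where 7 of the 11 were above the median gene. The receptors were detected in a median of 25% of the compared cells. Among all genes found in 10 to 30% of cells, 32.5% were above the median gene, with a median of -0.22. Csf3r, the G-CSF receptor, was at 0.22 over both ages and changed sign after quantile normalization (-0.31). Csf1r, the M-CSF receptor, was at -0.38 and Csf2rb, the shared receptor chain for GM-CSF, at -0.14.

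Early lymphoid transcripts were detected in both groups. Of 22 measured early lymphoid genes 14 were above the median gene and 2 passed 2, and the list median of 0.27 changed sign in the matched cells (-0.11) and after quantile normalization (-0.02). These genes were detected in a median of 60% of the compared cells, and of all genes found in 50 to 70% of cells 73.3% were above the median gene and 7.87% passed 2, with a median of 0.60. Dntt (chr19:41029275-41059525), the DNA polymerase that adds bases at antigen receptor joints and an early lymphoid marker, ranged over 0, 274 and 4719.6 TPM in Mpo-high cells and over 0, 190.2 and 2926 TPM in Mpo-negative cells. It was detected in 84.8% of Mpo-high and 72.2% of Mpo-negative cells, so 39 of the 46 Mpo-high cells carried Dntt beside Mpo. At 100 TPM or more, Dntt was found in 33 of the 46 Mpo-high cells (71.7%, interval 56.5 to 84.0%) and in 28 of the 54 Mpo-negative cells (51.9%, interval 37.8 to 65.7%).

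The direction of Dntt differed between the ages. At 14 months its median was 233 TPM in Mpo-high and 329 TPM in Mpo-negative cells, a relative difference of -1.19 (-1.05 in set 4, -1.81 in set 5). At 4 months its median was 338 TPM in Mpo-high and 4.86 TPM in Mpo-negative cells, a relative difference of 2.71. Dntt reached 100 TPM in 66.7% of Mpo-high and 72.0% of Mpo-negative cells at 14 months, and in 76.0% of Mpo-high and 34.5% of Mpo-negative cells at 4 months. The matched cells of both ages together gave 0.07. The difference between the ages was not tested.

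Among the early lymphoid genes past 2 was Ighm, whose germline transcript appears before immunoglobulin rearrangement. It had medians of 538 TPM in Mpo-high and 86.9 TPM in Mpo-negative cells and a relative difference of 2.32, or 2.35 in the matched cells. Il7r, the interleukin-7 receptor chain of lymphoid progenitors, was detected in 23.9% of Mpo-high cells (interval 12.6 to 38.8%) and 5.56% of Mpo-negative cells (1.16 to 15.4%). Its relative difference of 0.82 was -0.10 in set 4 and 2.80 in set 5. All 11 Mpo-high cells with Il7r also had Dntt. Satb1, Ikzf1 and Notch1, regulators of lymphoid entry, were at 0.43, 0.21 and 0.08, and each changed sign after quantile normalization (-0.19, -0.42 and -0.09).

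Of 16 measured genes tied to stem cells 13 were below the median gene and 0 passed 2. They were detected in a median of 36.5% of the compared cells. Among all genes found in 30 to 50% of cells, 62.9% were above the median gene and 1.13% passed 2, with a median of 0.23. The list median relative to the median gene was -0.32, with -0.31 at 14 months, -0.47 at 4 months and -0.75 in the matched cells. It was 0.06 without a filter on low genes. A median of 7 list genes was detected per Mpo-high cell, against 6.5 per Mpo-negative cell. Mecom, a transcription factor that maintains stem cells, had the lowest value of the genes eligible for naming, -1.87, with -1.19 at 14 months, -2.46 at 4 months and -1.81 in the matched cells. It ranged over 0, 0 and 84.7 TPM in Mpo-high cells and over 0, 0.07 and 624 TPM in Mpo-negative cells. It was detected in 28.3% of Mpo-high cells (interval 16.0 to 43.5%) and 44.4% of Mpo-negative cells (30.9 to 58.6%), whereas 79.4% of measured genes had a positive difference before the median was taken off. Hlf, another stem cell factor, was at -1.35 and was detected in 54.3% of Mpo-high and 61.1% of Mpo-negative cells. Ctla2a, an inhibitor of cathepsin-type proteases, was at -1.86, with medians of 74.9 TPM in Mpo-high and 241 TPM in Mpo-negative cells. Lmo2, a core haematopoietic cofactor in the same list, was at 0.80.

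**Figure D3:**
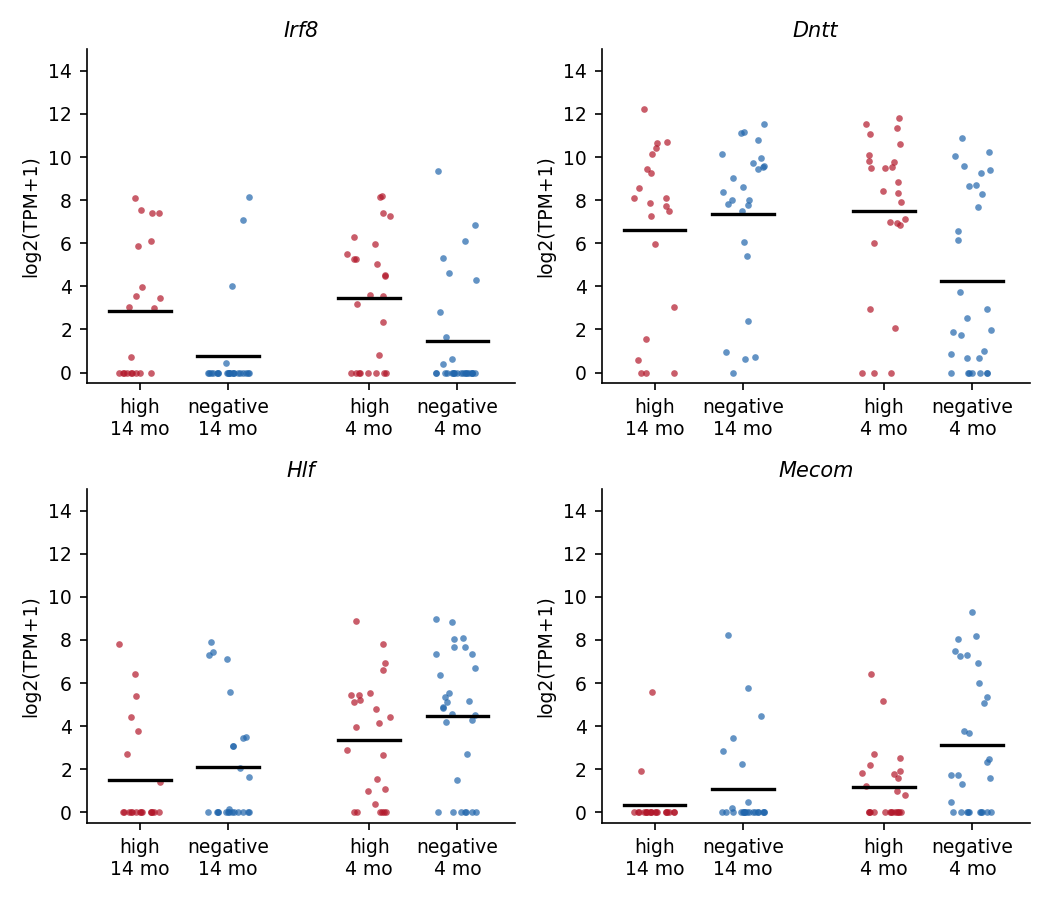
Level of 4 regulators and lineage genes in single cells, log2(TPM+1) on the vertical axis, for Mpo-high (red) and Mpo-negative (blue) cells by age in months (mo). Each point is a cell and black bars are means. The mean of Dntt was the lower one in Mpo-high cells at 14 months and the higher one at 4 months, while Mecom was the lower one in Mpo-high cells at both ages.

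Other genes named for low values in Mpo-high cells included Ikzf2, a relative of Ikaros, detected in 17.4% of Mpo-high and 38.9% of Mpo-negative cells (relative difference -1.63, and -1.46 in the matched cells). Car2, carbonic anhydrase of erythroid and other cells, was at -1.60, with -2.89 at 14 months and -0.51 at 4 months. Vwf, a gene of megakaryocytes and endothelium, was at -1.13. The list of 7 measured megakaryocyte and erythroid genes had a median of -0.31, and Gata1 and Epor were at 0 in all compared cells. The rest of the 12 lowest were Rnf214 (-1.79), Cnrip1 (-1.57), Ppp1r12a (-1.54), Dnajc1 (-1.54), H2-Q6 (-1.54), Caprin2 (-1.49), Bcas3 (-1.48) and Dhtkd1 (-1.47), none of which reached a size of 2.

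Surface markers of the sort itself varied within the gate. Flt3, the receptor that the gate selects for, was detected in 95.7% of Mpo-high and 96.3% of Mpo-negative cells, with a relative difference of 0.27 that was -0.12 after quantile normalization. Cd34 was at 1.27 at 14 months and 1.13 at 4 months, with medians over both ages of 422 TPM in Mpo-high and 267 TPM in Mpo-negative cells. Kit was at -0.82. It was detected in 59.3% of Mpo-negative cells, in 72.7% of cells with Mpo at 100 to 1000 TPM and in 53.8% at 1000 TPM or more. Ly6a, which encodes Sca-1, was at -0.38 and was detected in 37.0% of Mpo-high and 35.2% of Mpo-negative cells. Slamf1, which encodes CD150 and is selected against, was at 0 in all compared cells. Among adhesion genes, Cd48, a surface protein that multipotent progenitors gain as stem cell potential is lost, was at 2.72, and at 1.12 in the matched cells.

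The 12 highest named genes included 3 proteasome genes, 1 tRNA synthetase and 1 gene of the granule list. Psme2, a subunit of the PA28 proteasome activator, led, with a relative difference of 4.79 at 14 months, 3.70 at 4 months and 3.28 in the matched cells. It had medians of 368 TPM in Mpo-high and 0 TPM in Mpo-negative cells and was detected in 89.1% of Mpo-high and 44.4% of Mpo-negative cells. Reads may be split between it and a near-identical copy, Psme2b, so its own level is uncertain. Kars, lysyl-tRNA synthetase, was at 4.04, with medians of 384 TPM in Mpo-high and 0.31 TPM in Mpo-negative cells. In both genes the groups overlapped, since each held cells at 0 and cells above 600 TPM. Kars was at 4.18 at 14 months, 3.92 at 4 months and 3.04 in the matched cells. Tex30 (3.91), Syngr2 (3.40), Snhg5 (3.32), Clec12a (3.25) and Phgdh (3.09), the first enzyme of serine synthesis, followed. Psmb6 (3.08), Snrpd1 (3.08), Krtcap2 (2.97), Psma1 (2.94) and Oser1 (2.89) completed the 12. Psma1, a core proteasome subunit, was at 5.49 in set 4 and -0.06 in set 5. In the matched cells the 12 genes ranged between 1.70 (Krtcap2) and 3.28 (Psme2).

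Nuclear genes of the respiratory chain and proteasome genes had the highest list medians over all compared cells. All 46 measured respiratory chain genes were above the median gene and 13 passed 2, with a median of 1.54 (1.68 at 14 months, 1.43 at 4 months, 0.70 in the matched cells). These genes were detected in a median of 75% of the compared cells. Of all genes found in 70 to 90% of cells, 73.9% were above the median gene and 7.83% passed 2, with a median of 0.67. The complex I subunits Ndufb10 (2.85) and Ndufa1 (2.80) led, and Ndufv1 (0.07) was last. Of 46 measured proteasome subunits 44 were above the median gene and 12 passed 2, with a median of 1.35 (1.13 at 14 months, 1.54 at 4 months, 0.69 in the matched cells). They were detected in a median of 61% of the compared cells. Of all genes found in 50 to 70% of cells, 73.3% were above the median gene and 7.87% passed 2, with a median of 0.60. Aminoacyl-tRNA synthetases had a median of 0.83, or 0.25 in the matched cells, and 17 of 22 were above the median gene. The synthetase genes were detected in a median of 40% of the compared cells. Among all genes found in 30 to 50% of cells, 62.9% were above the median gene, with a median of 0.23. The proteasome and synthetase lists were drawn up after genes of both had been seen among the highest.

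Genes of protein folding in the endoplasmic reticulum, where granule enzymes are made, had a list median of 0.85 (0.72 at 14 months, 0.85 at 4 months, 0.56 in the matched cells). Of 38 measured genes 33 were above the median gene and 2 (5.26%) passed 2. They were detected in a median of 69% of the compared cells. Of all genes found in 50 to 70% of cells, 73.3% were above the median gene and 7.87% passed 2, with a median of 0.60 over all compared cells and 0.08 in the matched cells. Spcs1, a signal peptidase subunit, was at 2.66 and Ssr2, part of the translocon, at 2.21. The chaperone Calr, which binds newly made myeloperoxidase, was at 0.73, with 0.76 at 14 months and 0.70 at 4 months. Heme synthesis, which supplies the cofactor of myeloperoxidase, had a list median of 0.29 with 6 of 10 genes above the median gene and 0 past 2. The median was 0.50 at 14 months, -0.12 at 4 months and 0.09 in the matched cells. The heme synthesis genes were detected in a median of 22% of the compared cells. Among all genes found in 10 to 30% of cells, 32.5% were above the median gene and 0.0423% passed 2, with a median of -0.22. The first enzyme of heme synthesis outside erythroid cells, Alas1, was detected in 41.3% of Mpo-high and 9.26% of Mpo-negative cells. Its relative difference was 1.22, and 1.55 in the matched cells.

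Most cell cycle genes were above the median gene. Of 52 measured genes of G2 and mitosis 48 were above the median gene and 4 passed 2, with a median of 1.09 (0.77 at 14 months, 1.13 at 4 months, 0.48 in the matched cells). Of 53 measured S phase genes 46 were above and 2 passed 2, with a median of 0.96 over all compared cells and 0.28 in the matched cells, where 32 of the 53 were above the median gene. The G2 and mitosis genes were detected in a median of 35% of the compared cells and the S phase genes in 41%. Of all genes found in 30 to 50% of cells, 62.9% were above the median gene and 1.13% passed 2, with a median of 0.23. Rrm1 and Rrm2, the subunits of ribonucleotide reductase, were at 2.51 and 2.22. Hmgb2, a chromatin protein abundant in dividing cells, was detected in all 46 Mpo-high cells and in 42 of 54 Mpo-negative cells. The mitotic markers Top2a and Mki67 were detected together in 27 of 46 Mpo-high cells (58.7%, interval 43.2 to 73.0%) and 14 of 54 Mpo-negative cells (25.9%, interval 15.0 to 39.7%). The same pair was found in 12 of 21 Mpo-high and 8 of 25 Mpo-negative cells at 14 months, and in 15 of 25 Mpo-high and 6 of 29 Mpo-negative cells at 4 months.

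The remaining lists had medians between -0.46 and 0.39. They were 0.33 for 74 cytosolic ribosomal protein genes, 0.38 for 32 ribosome biogenesis genes, 0.37 for 17 glycolysis genes, 0.39 for 20 adhesion genes, 0.11 for 17 interferon response genes and -0.03 for 22 immediate early genes. The dendritic cell list, 7 measured genes, was at -0.46. In the matched cells the glycolysis and adhesion medians were -0.03 and -0.04.

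**Figure D4:**
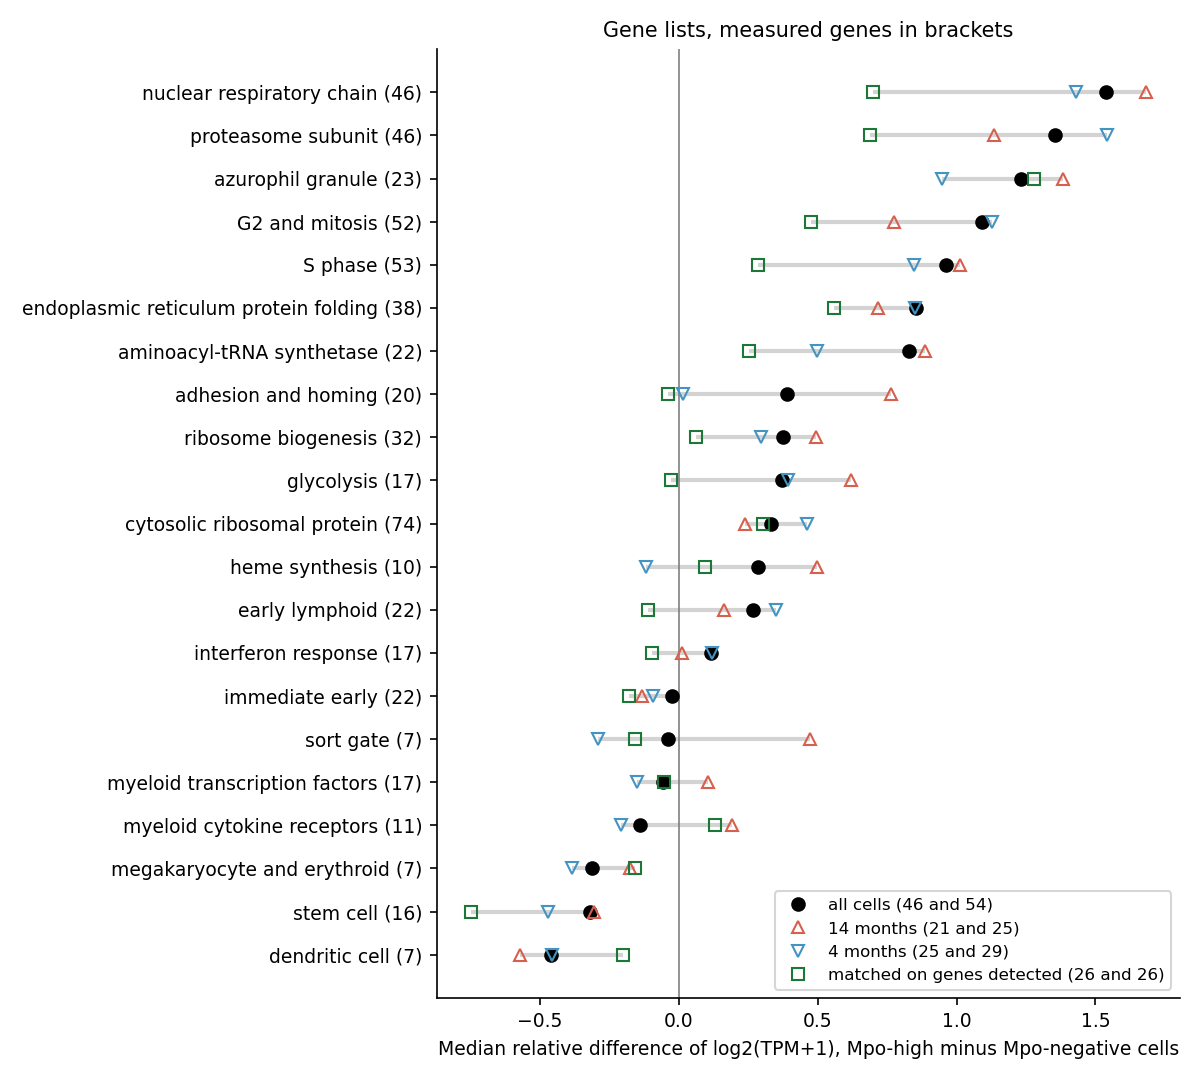
Median relative difference of log2(TPM+1), Mpo-high minus Mpo-negative cells, for each gene list with 7 or more measured genes, in all cells, within each age and in cells matched on genes detected. Numbers of Mpo-high and Mpo-negative cells stand in the legend, and 0 is the median gene. The azurophil granule list keeps its value in matched cells (1.28), while the respiratory chain and proteasome lists are lower there (0.70 and 0.69).

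The groups were also laid out along the level of Mpo, from under 1 TPM (54 cells) through 1 to 100 TPM (30 cells) and 100 to 1000 TPM (33 cells) to 1000 TPM or more (13 cells). Median genes detected were 3197.5, 3841, 4054 and 4064 over these ranges. Cells of 14 months numbered 25, 20, 15 and 6 in them, so the ranges also differed in age. The part of age in the shares below was not tested. Intervals below cover counting error only. Ctsg was detected in 3.70%, 40.0%, 30.3% and 46.2% of cells from the lowest to the highest range, and Cst7 in 25.9%, 66.7%, 63.6% and 69.2%. For both genes the step lay between cells without Mpo and cells with a low level of it, and the intervals of the 3 upper ranges overlapped. Clec12a was detected in 16.7%, 46.7%, 75.8% and 61.5% and Irf8 in 20.4%, 43.3%, 60.6% and 53.8%. Mecom was detected in 44.4%, 40.0%, 30.3% and 23.1%, and Ly6a in 35.2%, 46.7%, 45.5% and 15.4%, with overlapping intervals. Among the 13 cells of the highest range, Dntt was detected in 69.2%, against 90.9% of cells at 100 to 1000 TPM.

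**Figure D5:**
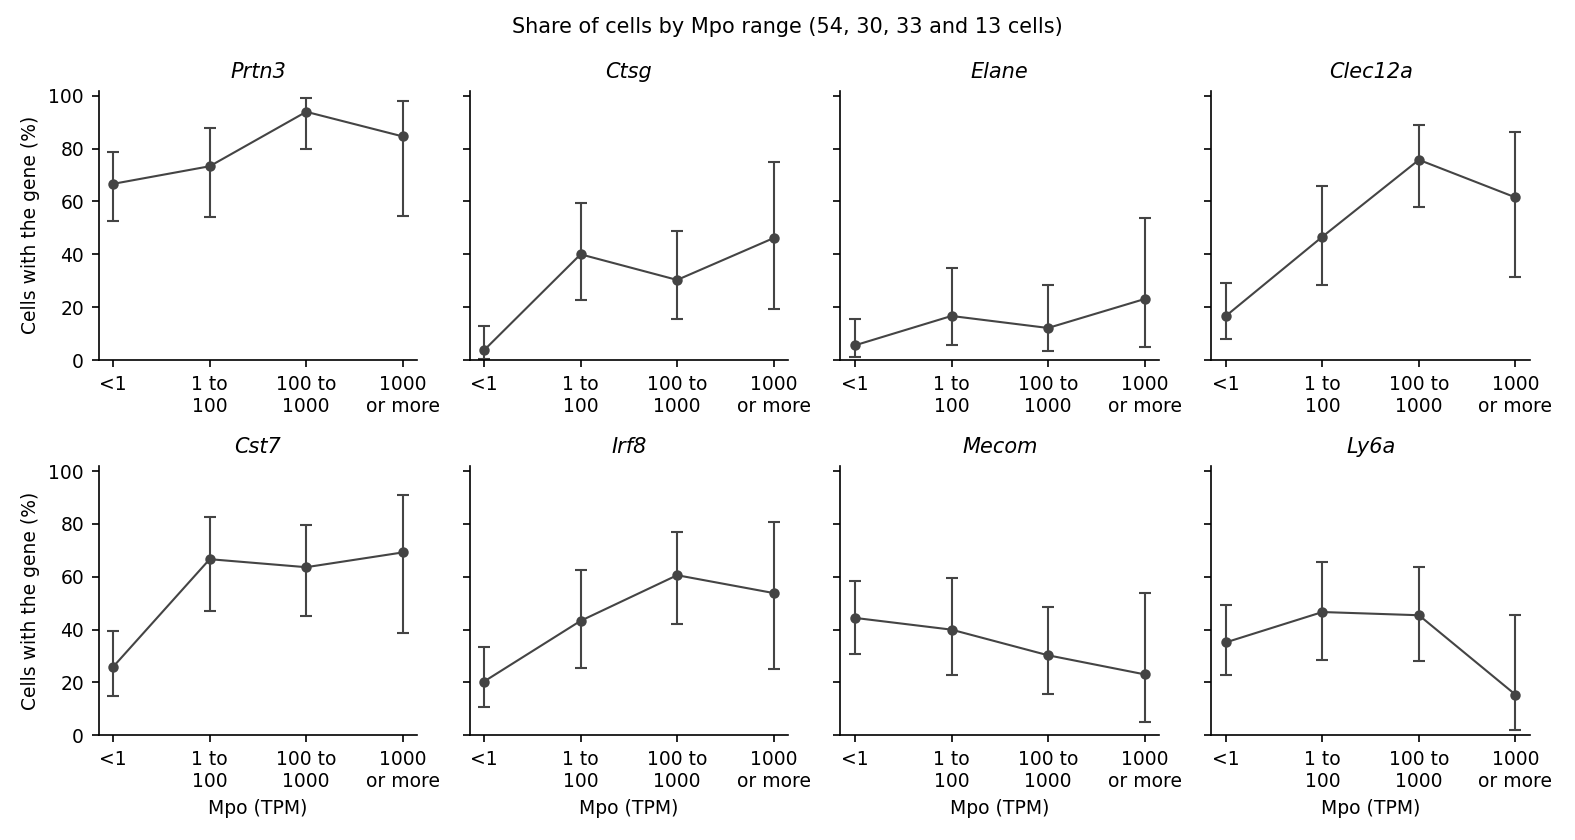
Share of cells (%) in which each of 8 genes was detected at TPM 1 or more, by the Mpo level of the cell in TPM, from low to high (54, 30, 33 and 13 cells). Points are shares and bars are exact 95% Clopper-Pearson intervals. Ctsg and Cst7 step up between cells without Mpo and cells at 1 to 100 TPM, with Ctsg in 3.70% and then 40.0% of cells and Cst7 in 25.9% and then 66.7%.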

How the data were processed

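Expression was measured in single LMPPs of 2 ages. The authors deposited TPM, with each cell scaled to the same total, per gene and cell in 1 table that holds both ages. Bowtie2 2.2.0, RSEM 1.2.12 and build mm10 are named in the submitters' processing notes, and RSEM can split reads among near-identical gene copies. TPM keep no read depth, so the depth of each cell is unknown. The table has 84 columns of 14 months, for which the labels list 83 cells, so cells were handled by age and not by label, and 0 columns were left unused. The 37607 of 38924 gene IDs with a symbol were named from GENCODE vM21.

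Columns with 1000 or more genes at TPM 1 or more were kept. Group means of log2(TPM + 1) were compared over genes detected in at least 10% of the compared cells, relative to the median gene, with pandas 2.3.3 and numpy 2.4.6 under Python 3.11.15, intervals came from scipy 1.17.1 and figures from matplotlib 3.10.9. The mean differences and their centring on the median gene were tested on simulated normal log2 values with known shifts. That simulation held no missed detection and no difference in detection between the groups. It did not cover matching, quantile normalization or shares of cells. No p-value was computed, since each age is 1 sample and the cells were chosen on the readout. The named genes are a panel of regulators and granule genes, the 12 highest and 12 lowest relative differences among named genes detected in at least 20% of either group, and the 2 highest and 2 lowest of each list. Predicted genes, small RNAs, pseudogenes and mitochondrial transcripts were not eligible. Clopper-Pearson 95% intervals and limits from a count of 0 (3 counts) cover counting error only. The members and lists were chosen with earlier results of these data known. The proteasome and aminoacyl-tRNA synthetase lists and the limit of 30% mitochondrial transcripts were chosen after seeing the data. The alternatives changed the pseudocount, gene and cell filters, Mpo thresholds, matching, normalization and averaging. Some genes that the naming rule or a list covers are not reported here.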

Additional observations from a re-analysis of the deposited data

Results flagged for a closer look

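Genes are given here because their relative difference, Mpo-high minus Mpo-negative, was at least 0.5 in size in both ages with opposite signs. The difference between the ages was not tested. Dntt was at -1.19 at 14 months and 2.71 at 4 months. Csf3r was at 1.14 at 14 months and -0.56 at 4 months. Ndufv1, a complex I subunit, was at 1.22 at 14 months and -0.92 at 4 months. Ftsj3, a ribosomal RNA processing factor, was at 0.61 at 14 months and -2.08 at 4 months. Cd68, a lysosomal protein of macrophages, was at -0.72 at 14 months and 0.53 at 4 months.

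Among the 38 columns left out for having under 1000 genes detected, 5 had Mpo at 100 TPM or more. All 5 were among the 18 left-out columns of 14 months. The 20 left-out columns of 4 months held 0 at that level, a count that allows a share of up to 15%. Mpo was under 1 TPM in 28 of the 38 left-out columns, against 54 of the 130 kept cells. These 28 were 11 of the 18 left-out columns of 14 months and 17 of the 20 of 4 months.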

How the results depend on the processing

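Relative to the median gene, 187 genes were higher and 13 lower over both ages, 403 and 29 at 14 months, and 302 and 53 at 4 months. The counts depended on the scale. They were 15 and 2, 61 and 5, and 29 and 5 (both ages, 14 months, 4 months) with a pseudocount of 10. With a pseudocount of 0.1 they were 559 and 91, 893 and 223, and 733 and 389. Without a filter on low genes they were 439 and 4, 708 and 13, and 577 and 18. Over genes detected in at least 30% of cells they were 80 and 31, 215 and 67, and 119 and 104. With medians over cells they were 1430 and 20, 1330 and 28, and 1629 and 46. With Mpo-high set at 1000 TPM or more they were 314 and 38, 778 and 108, and 585 and 166. With Mpo-high set at 10 TPM or more, 4 genes were lower over both ages, and 179 were higher and 22 lower at 4 months. With Mpo listed at exactly 0, 48 were lower at 14 months. In matched cells, with measured genes chosen anew, they were 93 and 33, 441 and 209, and 168 and 119. In cells under 30% mitochondrial they were 120 and 7, 369 and 49, and 151 and 29. After quantile normalization 34, 63 and 93 genes were lower. With 2000 or more genes per cell 63 were lower at 14 months. With 500 or more, 6 were lower over both ages and 14 at 14 months. Without cells dominated by mitochondrial transcripts or 1 gene 48 were lower at 14 months. In the columns of 14 months, set 4 alone gave 692 and 135 and set 5 alone gave 714 and 166. The cause was not tested.

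With medians over cells the ribosome biogenesis list was at 1.56 and the proteasome list at 3.70. The medians of the azurophil granule, respiratory chain, proteasome, G2 and mitosis, S phase, endoplasmic reticulum, tRNA synthetase and ribosome biogenesis lists stayed above 0 in all 17 alternatives. The ribosomal protein list was at -0.13 in cells under 30% mitochondrial, and the stem cell list was at 0.06 without a filter on low genes. No paired analysis was possible because the replicate numbers only name cells. Each age is 1 sample with no animal given, and the unknown depth limits what a value of 0 can say.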

Other observations

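The 30 cells with Mpo between 1 and 100 TPM belong to neither group. A median of 11.5 granule list genes was detected in them, and at least 2 of Prtn3, Elane and Ctsg in 11 of them (36.7%). Among them, 2 cells of 14 months held 11 and 13 genes of the late neutrophil and monocyte list, with Ly6c2, a surface protein of monocytes, at 6592 and 4846 TPM and Ccr2, a monocyte chemokine receptor, at 1069 and 856 TPM. A Mpo-high cell of 4 months held 9 genes of the dendritic cell list at a sum of 25689 TPM, led by the antigen presentation genes H2-Ab1 (7767 TPM), H2-Aa (7372 TPM) and Cd74 (6982 TPM). A Mpo-negative cell of 4 months held 5 genes of that list at a sum of 15462 TPM. These cells were picked after their values were seen.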
